A study of Mus musculus with 5 samples.

Results

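The genes of catecholamine synthesis and noradrenergic identity were followed in RNA recovered with SMN (survival of motor neuron), the ribonucleoprotein assembly factor that is deficient in spinal muscular atrophy. The set held 9 genes of 19937 with a probe set of their own, namely the synthesis enzyme genes Th, Ddc, Dbh and Gch1, the transporter genes Slc18a1, Slc18a2 and Slc6a2, and the transcription factor genes Phox2a and Hand2. Each was read by 1 probe set that carries no other gene symbol. The genes were chosen by name and role with the differences between the precipitates already known, and those of Th, Dbh and Ddc had drawn attention to them. The differences below are therefore a description of these arrays and not a test of the genes.

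The cells were NSC-34, a mouse line with a motor neuron-like phenotype made by fusing neuroblastoma cells with spinal cord motor neurons, differentiated in medium with 1% serum. The FLAG-SMN IP group (3 arrays) came from NSC-34 cells that contain a 3XFLAG-flSMN construct, and the control IP group (2 arrays) from NSC-34 cells with no FLAG construct. Cells of both groups received doxycycline at 3 µg/ml for 3 days and ultraviolet irradiation at 400 mJ/cm2, and lysates of both were precipitated with anti-FLAG M2 magnetic beads. The control precipitates measure background binding to the beads. The labels do not name the promoter of the construct, do not say whether the tagged line is a single clone, and do not say that replicates were separate cultures, so any spread between replicates may be technical. Total RNA of the cells was not analysed here, so a transcript that is scarcer in the tagged cells and a transcript that is precipitated less cannot be told apart.

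Catecholamines are made from tyrosine in a short chain of reactions. Tyrosine hydroxylase, encoded by Th, makes L-DOPA and is the rate-limiting step, DOPA decarboxylase (Ddc) turns L-DOPA into dopamine, and dopamine beta-hydroxylase (Dbh) makes noradrenaline inside the secretory vesicle. Tyrosine hydroxylase needs tetrahydrobiopterin, whose synthesis begins with GTP cyclohydrolase (Gch1). The vesicular monoamine transporters (Slc18a1 and Slc18a2) fill the vesicles, and the noradrenaline transporter (Slc6a2) takes the released transmitter back up. Phox2a and Hand2 are transcription factors of sympathetic neurons, the lineage from which neuroblastoma arises, and Phox2a is known to act on the Dbh promoter through homeodomain sites.

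Th and Dbh were the genes of the set with the largest differences, both negative, so the sequence upstream of their start sites is shown, together with the start of Slc18a2, which shares a motif with Th. Sequences are from RefSeq, build GRCm38.p6, which had promoter entries for 7 of the 9 genes (8 windows, Ddc having 2). The Th window is the 250 bases before the start site on the minus strand (chr7:142899996-142900245), the Dbh window the 250 bases before the start site on the plus strand (chr2:27165257-27165506), and the Slc18a2 window 55 bases across the start site on the plus strand (chr19:59260828-59260882). Capitals mark TGACGTCA, the cAMP response element, and CAATTAG, which contains the ATTA core of homeodomain sites and was picked after the sequences were read.
Th: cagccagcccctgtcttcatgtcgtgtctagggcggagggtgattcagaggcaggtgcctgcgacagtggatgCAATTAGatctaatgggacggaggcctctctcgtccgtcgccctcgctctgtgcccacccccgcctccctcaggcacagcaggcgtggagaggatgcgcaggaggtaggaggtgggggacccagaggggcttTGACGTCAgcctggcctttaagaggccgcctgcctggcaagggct
Dbh: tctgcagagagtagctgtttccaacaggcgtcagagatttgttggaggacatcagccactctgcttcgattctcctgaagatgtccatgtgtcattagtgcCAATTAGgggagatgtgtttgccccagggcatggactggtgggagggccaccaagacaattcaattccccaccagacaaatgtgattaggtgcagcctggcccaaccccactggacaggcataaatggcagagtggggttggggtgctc
Slc18a2: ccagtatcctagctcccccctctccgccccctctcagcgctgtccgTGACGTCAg

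Motifs were sought on both strands of windows of 300 bases, and CAATTAG overlaps ATTA. TGACGTCA was in the windows of 2 of the 7 genes, at -45 to -38 from the Th start site and at -4 to 4 in Slc18a2, and in 1.79% of 32851 mouse promoter windows. CAATTAG was in the windows of 3 of the genes, at -177 to -171 in Th, at -149 to -143 in Dbh and at -124 to -118 in Hand2, and in 1.98% of all windows. Since it was picked after the sequences were read, its count in these genes cannot be set against that share. ATTA alone was in the windows of 5 of the 7 genes and in 58.0% of all windows. The arrays measured precipitated RNA and not the activity of these promoters.

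Of the 5 arrays, replicate 1 of FLAG-SMN IP was unlike the rest of its group, with Pearson r of 0.964 and 0.968 to replicates 2 and 3 across 28187 probe sets, against 0.989 between those replicates. The control arrays reached r = 0.980, and arrays of different groups 0.954 to 0.977. Probe sets are not independent, so these r values only describe the arrays. The log2 differences without that array were -2.19 for Th, 0.84 for Ddc, -2.09 for Dbh, 0.36 for Gch1, -0.37 for Slc18a1, 0.13 for Slc18a2, 0.11 for Slc6a2, -0.26 for Phox2a and -0.16 for Hand2. Of 11 cholinergic motor neuron markers, 7 were above the median of the presumed control probe sets on every array, but Mnx1 and the choline transporter gene Slc5a7 were below it on all 5, and Chat, the defining enzyme gene of cholinergic neurons, was at 4.53, 4.69 and 4.40 in FLAG-SMN IP and 4.61 and 4.28 in control IP, near that median. Slc5a7 and Chat were named after their values were seen.

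All values are log2 values after robust multi-array averaging (RMA) by the authors, and the presumed control probe sets, whose medians ran from 4.30 to 4.55, serve as a guide to background. By their upper quartile, 5.98 to 6.20 on the 5 arrays, the 9 genes fell into 3 kinds. Gch1, Phox2a and Hand2 were above it on all 5 arrays. Th and Dbh were above it on both control arrays and on none of the FLAG-SMN arrays. Ddc, Slc18a1, Slc18a2 and Slc6a2 were above it on no array, so their levels are close to background throughout and the size of their differences is uncertain.

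**Figure D1:**
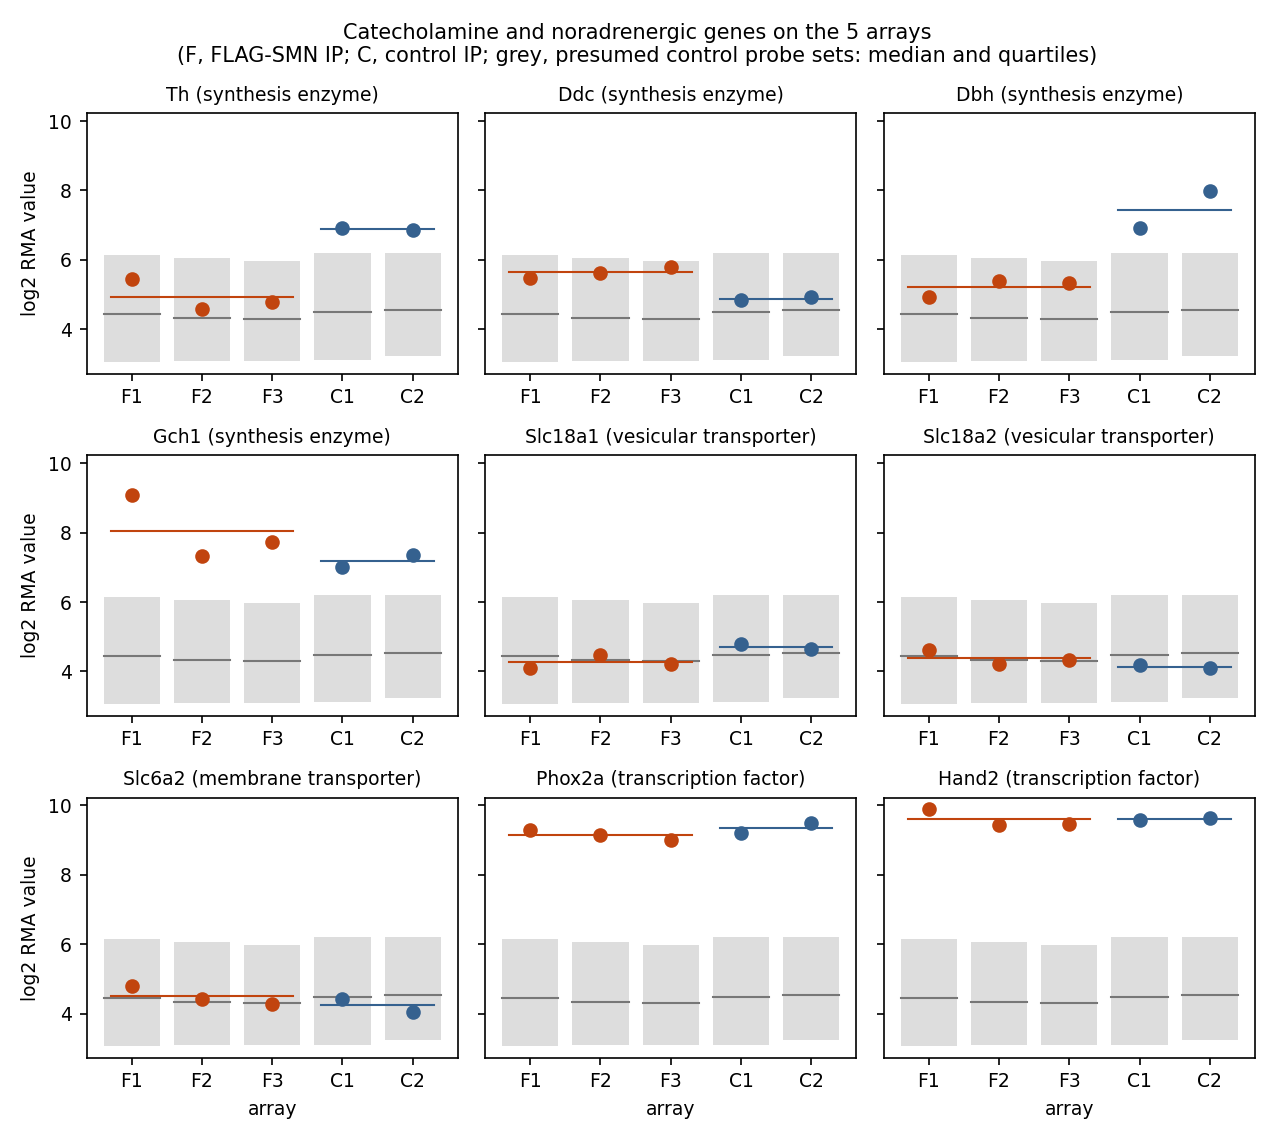
Log2 RMA values (vertical axis) of the 9 genes on each array (horizontal axis; F1 to F3, FLAG-SMN IP; C1 and C2, control IP), with a coloured line at each group's mean and, in grey, the quartiles and median of the presumed control probe sets of that array. Th and Dbh lie above the grey box in both control precipitates and inside it in all 3 FLAG-SMN precipitates, Phox2a and Hand2 stay between 9.0 and 9.88 throughout, and Gch1 is highest on F1 at 9.08.

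Th was at 5.44, 4.58 and 4.80 in FLAG-SMN IP and at 6.91 and 6.85 in control IP. The groups did not overlap, and the highest FLAG-SMN array lay 1.41 below the lowest control array. The means were 4.94 ± 0.44 (SD, n = 3) and 6.88 ± 0.042 (SD, n = 2), a log2 difference of -1.94 (SE 0.28), or 3.84-fold lower. Within FLAG-SMN IP the spread came from replicate 1, which was 0.75 above the mean of replicates 2 and 3, while the control arrays differed by 0.059. Because the FLAG-SMN values lay only 0.25 to 0.99 above the presumed control median of their arrays, the fold is uncertain.

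Dbh, whose enzyme is particular to noradrenaline and adrenaline synthesis, was at 4.94, 5.38 and 5.33 in FLAG-SMN IP and at 6.91 and 7.98 in control IP. Again no FLAG-SMN array reached a control array, with a gap of 1.53. The means were 5.22 ± 0.24 (SD, n = 3) and 7.45 ± 0.76 (SD, n = 2), a log2 difference of -2.23 (SE 0.34), or 4.70-fold lower. Here the spread lay in the control group, whose arrays differed by 1.07, and FLAG-SMN IP replicate 1 was the lowest array rather than the highest of its group. Leaving out control IP replicate 1 gave -2.77 and leaving out control IP replicate 2 gave -1.69. The FLAG-SMN values were 0.49 to 1.05 above the presumed control median, so this fold is uncertain as well. Ordered among all 28187 probe sets from the most negative difference, Dbh was number 18 and Th number 31.

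Ddc differed in the opposite direction. Its log2 values were 5.49, 5.64 and 5.81 in FLAG-SMN IP and 4.83 and 4.94 in control IP, so that every FLAG-SMN array lay above both control arrays by at least 0.55. The means were 5.65 ± 0.16 (SD, n = 3) and 4.89 ± 0.078 (SD, n = 2), a log2 difference of 0.76 (SE 0.19). The control values were 0.35 and 0.40 above the presumed control median. The enzyme gene between Th and Dbh in the chain thus did not share their direction.

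Gch1, which supplies the cofactor of tyrosine hydroxylase, was well above the presumed controls, at 9.08, 7.34 and 7.73 in FLAG-SMN IP and 7.0 and 7.35 in control IP. Its groups overlapped, because FLAG-SMN IP replicate 2, at 7.337, lay just below control IP replicate 2, at 7.350. The means were 8.05 ± 0.91 (SD, n = 3) and 7.17 ± 0.25 (SD, n = 2), a log2 difference of 0.87 (SE 0.49). This difference was set largely by 1 array: FLAG-SMN IP replicate 1 was 1.55 above the mean of the others in its group, and without it the difference was 0.36. Gch1 had the largest spread within FLAG-SMN IP of the 9 genes, with an SD of 0.91 against a median of 0.24 over the set and 0.22 over all probe sets.

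The vesicular transporters, the only pair of near relatives in the set, were both at background level. Slc18a1, the form best known from chromaffin and other endocrine cells, was at 4.10, 4.47 and 4.21 in FLAG-SMN IP and 4.78 and 4.64 in control IP, a log2 difference of -0.45 (SE 0.19) with no overlap. Slc18a2, the neuronal form, was at 4.61, 4.21 and 4.32 against 4.17 and 4.10, a difference of 0.24 (SE 0.20), its groups being separated by 0.041. Slc18a1 was above the presumed control median on 3 of the 5 arrays and Slc18a2 on 2, so neither value is read as a difference in RNA and no fold is given. Slc6a2, the noradrenaline transporter gene, was at 4.80, 4.41 and 4.29 in FLAG-SMN IP and 4.43 and 4.05 in control IP, a difference of 0.26 (SE 0.23) with overlapping groups, and was above that median on 2 arrays.

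Both transcription factor genes gave high and even values. Phox2a was at 9.29, 9.15 and 9.0 in FLAG-SMN IP and 9.19 and 9.49 in control IP, with means of 9.15 ± 0.14 (SD, n = 3) and 9.34 ± 0.21 (SD, n = 2) and a log2 difference of -0.19 (SE 0.19). Hand2 was at 9.88, 9.43 and 9.47 against 9.58 and 9.65, with means of 9.60 ± 0.25 (SD, n = 3) and 9.61 ± 0.050 (SD, n = 2) and a difference of -0.016 (SE 0.21). For both genes the groups overlapped and the difference was no larger than its standard error. Without FLAG-SMN IP replicate 1 the groups of both were apart, with FLAG-SMN IP lower, by -0.26 (SE 0.21) for Phox2a and -0.16 (SE 0.19) for Hand2. The sign of the Hand2 difference changed in 6 of 12 other settings, from -0.16 to 0.066, including 2 changes of scaling. Noradrenergic transcription factor RNA thus lay 4.70 to 5.43 above the presumed control median on every array, including those where Th and Dbh were near it.

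Over the 9 genes the groups were apart with FLAG-SMN IP lower for 3 (Th, Dbh and Slc18a1), where 13.2% of all probe sets were so, and apart with FLAG-SMN IP higher for 2 (Ddc and Slc18a2), where 12.1% were so. The other 4 overlapped. In limma 0 of the 9 passed a Benjamini-Hochberg adjusted p of 0.05, as did 0.0319% of all probe sets (9 of 28187), and the adjusted p of the genes ran from 0.0957 for Th to 0.999 for Hand2. At an unadjusted p under 0.05 in limma there were 2 lower (Th and Dbh; 6.31% of all probe sets) and 1 higher (Ddc; 4.14%). Since the same differences had led to the choice of the genes, nothing is read from these shares. The median difference was -0.016 over the set and 0.018 on the whole table. Replicate 1 of FLAG-SMN IP was above the mean of the other FLAG-SMN arrays for 6 of the 9 genes and for 14818 of all 28187 probe sets. Its median signed deviation was 0.34 over the 9 genes, against 0.025 over all probe sets, where opposite signs cancel. Regardless of sign, the median size of the deviation was 0.42 over the 9 genes and 0.27 over all probe sets. Without that array Th (limma adjusted p = 0.00850) and Dbh (limma adjusted p = 0.0386) passed. Calls then rose over all probe sets as well, to 159 higher and 191 lower, from 4 higher and 5 lower with all 5 arrays. The genes had also been chosen by this contrast, so nothing is read from the passing of Th and Dbh. Leaving out any of the other 4 arrays left 0 of the 9 past the threshold in limma.

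**Figure D2:**
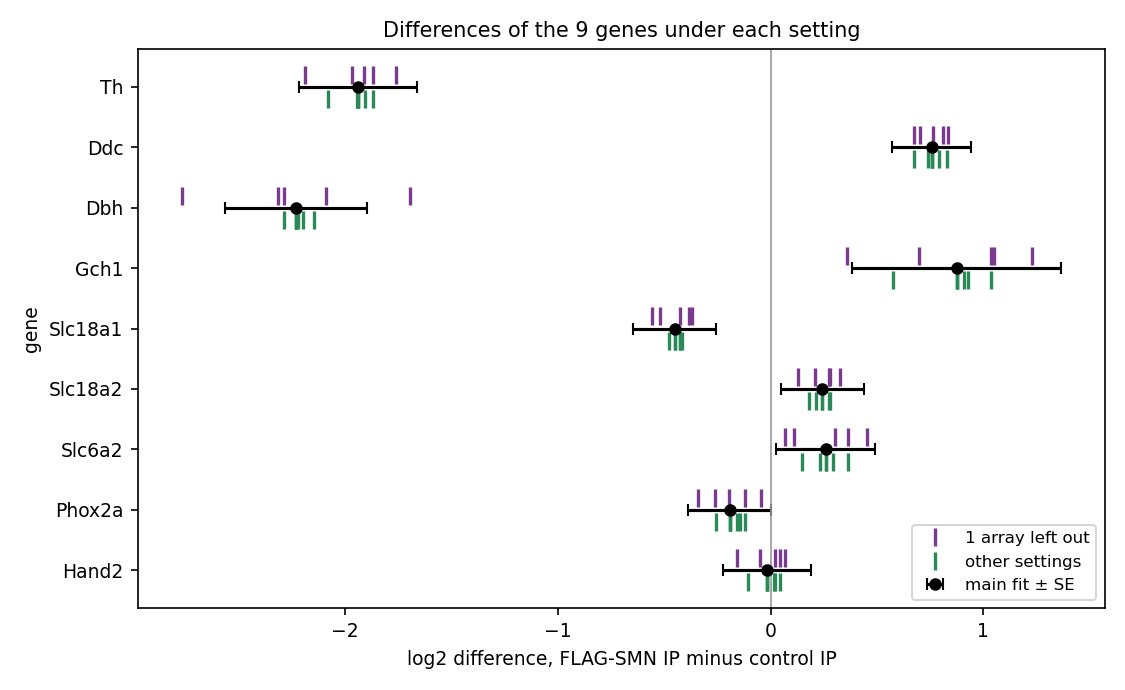
Log2 difference, FLAG-SMN IP minus control IP (horizontal axis), for each of the 9 genes (vertical axis), with black points and bars for the fit of all 5 arrays and its standard error, purple ticks for fits with 1 array left out and green ticks for the other settings. Th and Dbh stay at -1.69 or below and Ddc between 0.68 and 0.84 in all settings shown, and Hand2 lies on both sides of 0.

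The rest of the pathway was followed in 10 lists of related genes, which were written with earlier results of these data known. Of their 126 genes, 106 were measured by a probe set of their own, and the others were not analysed here. In limma 0 of the 106 passed the adjusted threshold in either direction, so their values are given without a call.

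Among 9 genes of biopterin supply and related hydroxylases the median difference was -0.054. At an unadjusted p under 0.05 in limma 1 gene was lower (6.31% of all probe sets) and 0 higher (4.14%). That gene was Pcbd1, which encodes a dehydratase that takes part in recycling tetrahydrobiopterin after each hydroxylation and also binds the transcription factor HNF1. Its log2 values were 8.98, 9.15 and 8.82 in FLAG-SMN IP and 10.3 and 10.2 in control IP, a log2 difference of -1.28 (SE 0.19; limma adjusted p = 0.108). Its groups were 1.04 apart, and every value was far above the presumed controls, which was not the case for Th and Dbh. Gch1, for the first enzyme of cofactor synthesis, had the opposite sign, but its groups overlapped and 1 array largely set its difference. Qdpr, another recycling gene of the list, named after its value was seen, gave -0.33 (limma adjusted p = 0.864) with overlapping groups. Tph2, the neuronal tryptophan hydroxylase gene, gave -0.38 (limma adjusted p = 0.642).

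Genes of catecholamine breakdown stayed close to 0. Their 8 differences ran from -0.11 to 0.55 with a median of 0.047, and none of them (0) passed an unadjusted p of 0.05 in limma. Aldh2, a mitochondrial aldehyde dehydrogenase gene, gave 0.55 (limma adjusted p = 0.550) and Akr1a1, an aldehyde reductase gene, 0.13 (limma adjusted p = 0.920). Of the adrenergic and dopamine receptor genes 7 of 14 were measured, with a median of 0.053 (-0.31 without control IP replicate 2). At an unadjusted p under 0.05 in limma 1 was lower (6.31% of all probe sets) and 0 higher (4.14%). Drd2, a dopamine receptor gene, gave -0.64 (limma adjusted p = 0.410) at levels below the presumed control median on 3 arrays, and Adra2c, an adrenergic receptor gene, gave 0.34 (limma adjusted p = 0.695).

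Other transcription factor genes of sympathetic and noradrenergic neurons had a median of 0.16 over 13. At an unadjusted p under 0.05 in limma 1 was higher (Gata3; 4.14% of all probe sets) and 1 lower (Sox11; 6.31%). Sox11, a factor of immature neurons, was at 7.0, 6.87 and 7.01 in FLAG-SMN IP and 7.88 and 8.10 in control IP, a difference of -1.03 (SE 0.18; limma adjusted p = 0.133). Gata3, a factor needed for noradrenergic differentiation, gave 0.50 (limma adjusted p = 0.469). For 16 genes whose proteins act on Th or its product the median was -0.20. At an unadjusted p under 0.05 in limma 2 were higher (4.14% of all probe sets) and 1 was lower (6.31%). The 14-3-3 protein gene Ywhag gave -0.68 (limma adjusted p = 0.280) and the immediate early gene Fos 0.48 (limma adjusted p = 0.396). The other higher gene was the orphan nuclear receptor gene Nr4a1 at 0.55, named after its value was seen.

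For 13 other neurotransmitter transporter genes the median was -0.0024 (-0.59 over the 6 brighter than the median probe set). At an unadjusted p under 0.05 in limma 3 were lower (6.31% of all probe sets) and 0 higher (4.14%). Slc29a4, a low-affinity carrier of monoamines in the plasma membrane, was at 7.38, 6.44 and 6.58 in FLAG-SMN IP and 8.01 and 8.21 in control IP, a difference of -1.31 (SE 0.31; limma adjusted p = 0.215). As with Th, FLAG-SMN IP replicate 1 was the highest of its group, by 0.87 over the mean of the others. Slc18b1, a vesicular polyamine carrier gene, gave -1.0 (limma adjusted p = 0.228), and the glycine transporter gene Slc6a9, named after its value was seen, gave -1.43 (limma adjusted p = 0.329). Slc6a3, the dopamine transporter gene, also named after its values were seen, lay between 4.55 and 4.98 on all arrays.

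Granule cargo, receptors and peptides of sympathoadrenal cells had a median of -0.19 over 14 genes, and 5 were lower (6.31% of all probe sets) and 0 higher (4.14%) at an unadjusted p under 0.05 in limma. The 5 were also the ones whose groups did not overlap. Scg2 (secretogranin II) gave -1.53 (SE 0.21; limma adjusted p = 0.0944) and Chga (chromogranin A) -1.88 (SE 0.28; limma adjusted p = 0.108). The remaining 3, named after their values were seen, were the receptor tyrosine kinase gene Ret at -0.73, the G protein regulator gene Rgs4 at -1.09 and Chgb (chromogranin B). Chgb was at 10.6, 8.48 and 8.53 in FLAG-SMN IP and 11.3 and 11.2 in control IP, a difference of -2.06 (SE 0.62; limma adjusted p = 0.308). Other peptide genes of the list overlapped between the groups, with Npy at -0.024, Gal at 0.098, Vip at -0.28 and Cartpt at 0.22, likewise named after their values were seen. Gal was below the presumed control median on 4 arrays and Vip on 5, and Npy was below the upper quartile on every array. The differences of Npy, Gal and Vip therefore do not show RNA that was present and unchanged. Scg2 in FLAG-SMN IP, at 5.36, 5.41 and 5.23, lay below the upper quartile of the presumed controls, as Th and Dbh did. The median was -0.73 among the 9 genes of the list brighter than the median probe set. The mean log2 value of the list was 5.70 to 6.05 on the FLAG-SMN arrays and 6.32 to 6.39 on the control arrays.

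Markers of other cell kinds were read in the same way. The mean log2 value of the cholinergic motor neuron markers was 6.05 to 6.26 on the FLAG-SMN arrays and 5.99 to 6.14 on the control arrays, with a median difference of 0.11 and 0 of 11 past an unadjusted p of 0.05 in limma. Isl1, shared by motor and sympathetic neurons, gave -0.72 (limma adjusted p = 0.507) and Mnx1 0.38 (limma adjusted p = 0.646). Dopaminergic and serotonergic markers had a median of 0.089 over 10 genes, Gch1 being the largest at 0.87, and 0 passed an unadjusted p of 0.05 in limma. Their mean log2 value was 5.39 to 5.50 on the FLAG-SMN arrays and 5.36 to 5.44 on the control arrays. Mesenchymal, Schwann and glial markers had a median of 0.099 over 13 genes and a mean log2 value of 5.52 to 5.62 against 5.50 to 5.53. Of these markers 1 was higher (Vim; 4.14% of all probe sets) and 0 lower (6.31%) at an unadjusted p under 0.05 in limma. Vim (vimentin) gave 0.67 (limma adjusted p = 0.467) and Snai2 -0.69 (limma adjusted p = 0.501). The part of any change in cell makeup in the values of Th and Dbh was not tested.

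**Figure D3:**
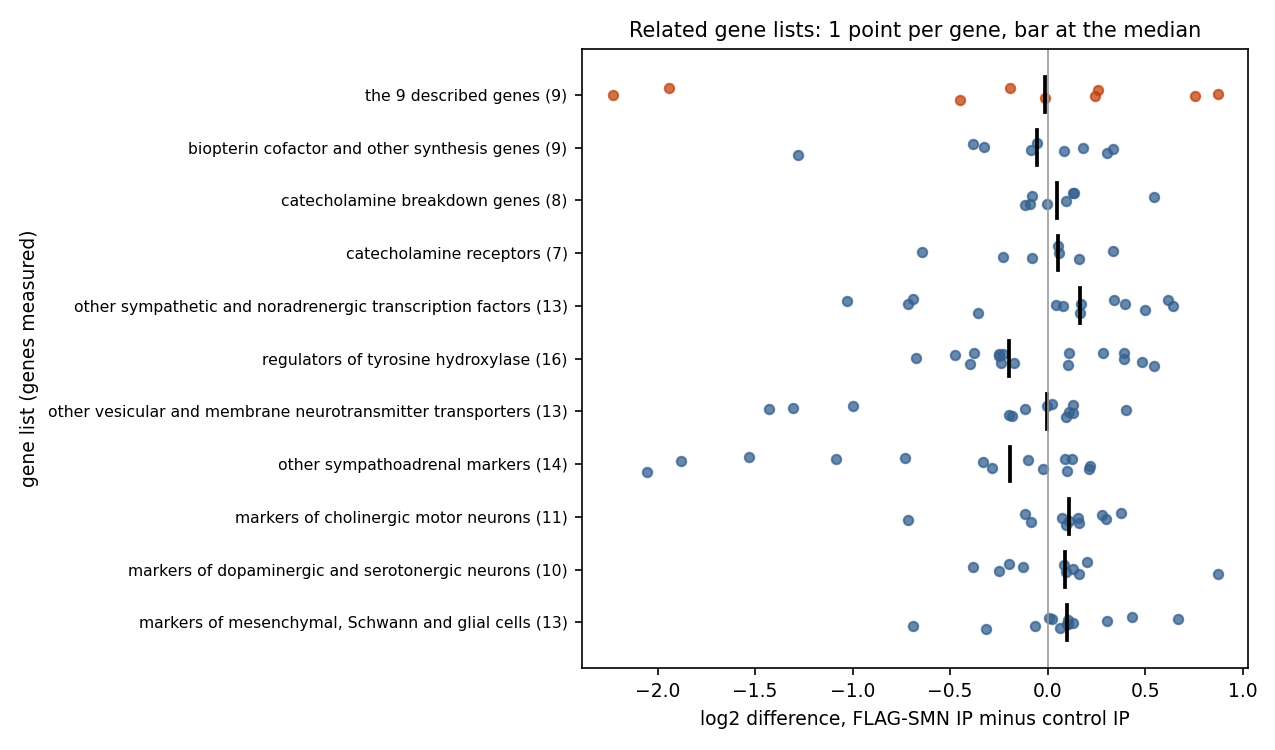
Log2 difference, FLAG-SMN IP minus control IP (horizontal axis), for the 9 genes and for 10 lists of related genes (vertical axis, number of genes measured in brackets), with 1 point per gene and a bar at the median. The medians lie between -0.20 and 0.16, and most of the points below -1 are Th and Dbh, sympathoadrenal marker genes and transporter genes.

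Th and Dbh were both lower in FLAG-SMN IP but differed in how the replicates were spread. After each probe set was centred on its mean over the 5 arrays, their root mean square difference was 0.58 log2 units. By that measure 296 of 21639 probe sets with 1 gene symbol were nearer to Th than Dbh was, and 127 were nearer to Dbh than Th was. The great majority were therefore less alike to either gene. Within the set, Th and Dbh were each the other's nearest gene, the next being Slc18a1 at 0.83 from Th and 0.96 from Dbh. Both had drawn attention through large negative differences, and the measure includes the difference between groups. Their nearness, in the set and among all probe sets, therefore follows from the choice and is not a result. What sets Th and Dbh apart is spread between replicates, which may be technical. Nearest to Th were Gpha2 (0.15), a glycoprotein hormone subunit gene, the neuronal intermediate filament gene Ina (0.17), the synaptic fusion protein gene Snap25 (0.18), the nicotinic receptor subunit gene Chrnb2 (0.19) and the carbonic anhydrase gene Car14 (0.22). Like Th, each of them was highest within FLAG-SMN IP on replicate 1, with control arrays at most 0.28 apart, Snap25 for example at 7.25, 6.05 and 6.32 against 8.55 and 8.80.

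Nearest to Dbh were the secreted semaphorin gene Sema3c (0.13), the R-spondin receptor gene Lgr5 (0.18), Raph1 (0.22), which encodes lamellipodin, the DNA demethylation enzyme gene Tet1 (0.27) and the transcription factor subunit gene Taf9b (0.27). These shared the high value on control IP replicate 2, as with Sema3c at 4.0, 4.10 and 4.20 in FLAG-SMN IP and 5.81 and 7.03 in control IP. With 5 arrays the likeness rests on few values and is given as a description.

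**Figure D4:**
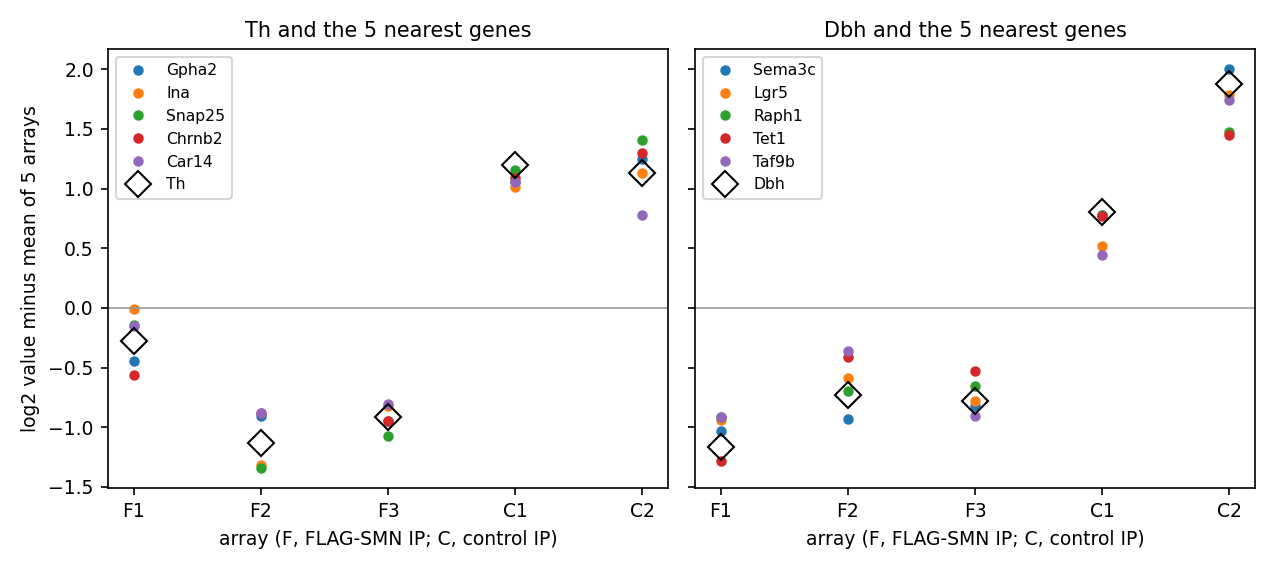
Log2 value minus the mean of the 5 arrays (vertical axis) on each array (horizontal axis; F, FLAG-SMN IP; C, control IP) for Th and Dbh (open diamonds) and the 5 genes nearest to each (coloured points). The Th panel is level between C1 and C2 and raised on F1, and the Dbh panel is higher on C2 than on C1.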

How the data were processed

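RNA from anti-FLAG precipitates was measured on 5 single-colour Affymetrix arrays, from 300 to 500 ng of RNA per the labels' protocols. The deposited log2 values were made with RMA, per the submitters' processing notes, with settings not given in the sources used here; a range of 1.28 to 14.15 fits that scale. RMA draws the arrays to a common distribution, so a general difference in recovered RNA is not visible. Of 34760 rows, the 6573 with IDs below the lowest annotated one were taken as presumed controls, which kept 28187, of which 21640 carry 1 gene symbol; 21553 of those matched a RefSeq gene by ID. limma 3.58.1 in R 4.3.3 (lmFit, eBayes, 2-sided) compared the groups on all kept probe sets with Benjamini-Hochberg adjustment and a threshold of 0.05. The number of arrays limits precision. Named were all 9 genes, the 2 genes of smallest p in each list, represented by their brightest probe set, and the 5 genes nearest to Th and Dbh. Any further genes are marked above as named after their values were seen. The genes and lists were chosen with earlier results of these data known. Alternatives were scaling, centring, brightness, variance moderation, weighting of arrays, a block for replicate number, all rows, each array left out and the mean over probe sets. Figures used matplotlib 3.10.9.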

Additional observations from a re-analysis of the deposited data

How the results depend on the processing

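Th and Dbh stayed lower and Ddc higher in FLAG-SMN IP, with groups apart, under cyclic loess scaling and centring on brighter probe sets. Only these settings change the array values. The rest of the 12 settings keep the values or drop 1 array, so groups already apart could not overlap or change direction in them. Th ranged from -2.19 to -1.76, Dbh from -2.77 to -1.69, Ddc from 0.68 to 0.84 and Gch1 from 0.36 to 1.23. Of the 9 genes, Th (limma adjusted p = 0.0446) and Dbh (limma adjusted p = 0.0485) passed with array weights, 2 in all, and Dbh alone (1 gene, limma adjusted p = 0.0382) with centring on brighter probe sets; with single arrays left out the count was 0 to 2. The count with groups apart was 2 to 3 higher and 3 to 5 lower with single arrays left out, and 1 higher among brighter probe sets, where Slc18a1, Slc18a2 and Slc6a2 were not tested; the groups of Slc18a1 overlapped with centring on brighter probe sets, and those of Slc18a2 with cyclic loess scaling. The groups of Gch1 were apart, FLAG-SMN IP higher, with both of these settings, without FLAG-SMN IP replicate 2 and without control IP replicate 2, those of Slc6a2 (higher) with cyclic loess scaling and without control IP replicate 1, and those of Phox2a (lower) without control IP replicate 1 or FLAG-SMN IP replicate 1. Among the related genes 1 passed with array weights (Scg2, lower) and 0 to 5 with single arrays left out, the 5 being Pcbd1, Slc29a4, Chga, Chgb and Scg2, lower without FLAG-SMN IP replicate 1. Over all probe sets the main 4 higher and 5 lower calls became 0 and 0 with cyclic loess scaling, with the replicate block and with all rows of the table, 16 and 25 with centring on brighter probe sets, 26 and 60 with array weights, and 8 lower with trend and robust moderation. With single arrays left out they ranged from 0 to 159 higher and from 0 to 191 lower. Both counts were largest without FLAG-SMN IP replicate 1, and the cause was not tested. Whether the replicate numbers in the titles pair the arrays was not settled. Deviations of same-numbered arrays from their group means correlated at 0.13 for replicate 1 and -0.20 for replicate 2. With 2 control arrays the control deviations are mirror images of each other, so these correlations cannot decide it. With the replicate block Th was -1.87 and Dbh -2.29, and 0 of the 9 genes passed in limma. FLAG-SMN IP replicate 3 has no control of its number, so these differences equal those without that array. The mean over probe sets left the 9 genes as they were, since each has 1. Signal near the presumed controls limits the folds of Th, Dbh and Ddc and leaves the transporter genes unresolved.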
